A study of Mus musculus with 4 samples.

Results

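Islet endothelial cells were followed in 4 droplet libraries made from isolated mouse islets. A cell barcode was taken as endothelial when it held UMIs (unique molecular identifiers, each counting 1 captured RNA molecule) of at least 4 of 8 endothelial genes, Pecam1, Plvap, Flt1, Kdr, Emcn, Egfl7, Esm1 and Cdh5. It also had to hold at least 1000 UMIs and 500 genes, at most 15% mitochondrial UMIs, under 20% UMIs of the islet hormone genes (Ins1, Ins2, Gcg, Sst and Ppy) and under 5% haemoglobin UMIs. The members were thus chosen by measured UMIs of the 8 genes, and the levels of those genes below are a description. Of the 26121 barcodes that met the depth and mitochondrial limits, 1994 were endothelial by this rule. There were 650 in WT at 1 month, 668 in CCR2-DTR at 1 month, 318 in WT at 6 months and 358 in CCR2-DTR at 6 months.

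The mice were female C57b6/J. CCR2-DTR mice (CCR2-DTR+/-) carry the diphtheria toxin receptor under control of Ccr2, the gene of a chemokine receptor of inflammatory monocytes, and the WT mice were their CCR2-DTR-/- littermates. All 4 groups received diphtheria toxin, 4 injections 48 h apart from postnatal day 2, so the controls carried the toxin without the receptor and no group was free of toxin. Mice were weaned at day 21 to a chow diet and islets were taken at 1 or 6 months of age. Each library held 300 islets pooled from 2 to 3 mice, and each group was 1 library. Differences between libraries therefore have no replicate check, no p-value was computed, and the intervals below (95%, exact) cover counting error only.

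Islets are supplied by a dense bed of fenestrated capillaries fed by arterioles and drained by venules or surrounding capillaries. Their endothelial cells are held in this state by VEGF-A from beta cells acting on the receptors Kdr and Flt1. In turn they lay down the basement membrane on which the endocrine cells rest and carry glucose and hormones across their walls.

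The label was checked with genes outside the rule. All 27 other endothelial markers that were detected, among them Cldn5, Tie1, Tek, Robo4 and Sox18, were at least 5-fold higher in the endothelial than in the other kept barcodes of every library. Together these markers made up 1.23% of endothelial UMIs in WT and 1.09% in CCR2-DTR at 1 month, and 1.18% and 1.15% at 6 months, against 0.00527% to 0.00804% in the other kept barcodes. The genes furthest above the other barcodes in all 4 libraries included Fam167b, Clec14a, Sox18, Gpihbp1 (which anchors lipoprotein lipase on capillaries), Btnl9 and Rgcc. Most members held all 8 rule genes (1454 of 1994) and 8 members held exactly 4. A further 9 barcodes held 3 rule genes and stayed outside. In those 9 the other endothelial markers made up 0.0231% to 0.230% of UMIs, by library.

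The endothelial barcodes were shallower than the other islet barcodes, with median UMIs of 3172, 4018, 5845 and 5757.5 against 9036.5 to 15037 over all kept barcodes (order here and below: WT and CCR2-DTR at 1 month, then WT and CCR2-DTR at 6 months). Total UMIs of the endothelial barcodes were 2793483, 3507937, 2162956 and 2386811. RNA of other cells was present. Beta cell markers made up 2.57%, 5.56%, 3.80% and 3.72% of endothelial UMIs and alpha cell markers 1.66%, 1.54%, 0.323% and 1.07%. Acinar markers made up 0.00358%, 0.0422%, 0.0121% and 0.103%, pericyte and smooth muscle markers 0.0461% to 0.0842%, macrophage markers 0.0103% to 0.0176% and T and B cell markers at most 0.00125%. In all, 195 members (9.78%) fell into sub-clusters led by genes of another cell type, with 62, 84, 19 and 30 in the 4 libraries; these are called mixed barcodes, and results that rest on them are given with and without them. Their part in any other result was not tested. Among listed barcode sequences, 120 occurred in more than 1 library; 1 of them was endothelial, in both 1-month libraries. The share of listed barcodes over the mitochondrial limit was 5.46%, 15.2%, 10.6% and 17.7%.

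The endothelial share of kept barcodes was 7.14% (6.62% to 7.69%) in WT and 7.5% (6.96% to 8.06%) in CCR2-DTR at 1 month. At 6 months it was 8.55% (7.67% to 9.49%) in WT and 8.15% (7.36% to 9.0%) in CCR2-DTR. The CCR2-DTR to WT ratio was 1.05 (0.941 to 1.17) at 1 month and 0.954 (0.818 to 1.11) at 6 months, so neither genotype difference exceeded counting error. The 6-month to 1-month ratio was 1.20 (1.04 to 1.37) in WT and 1.09 (0.954 to 1.24) in CCR2-DTR. The WT age ratio turned to the other side of 1 when only kept barcodes with under 20% hormone UMIs formed the denominator. The shares were then 30.1%, 28.2%, 19.0% and 22.8%, with an age ratio of 0.629 in WT and 0.810 in CCR2-DTR. With the hormone limit for members set at 5% instead, the shares were 5.67%, 2.62%, 5.89% and 5.56%, with a genotype ratio of 0.461 at 1 month and an age ratio of 2.12 in CCR2-DTR. The share therefore has no stable direction with age in either genotype or between the genotypes at either age. Its size in CCR2-DTR at 1 month depends on the hormone limit.

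**Figure D1:**
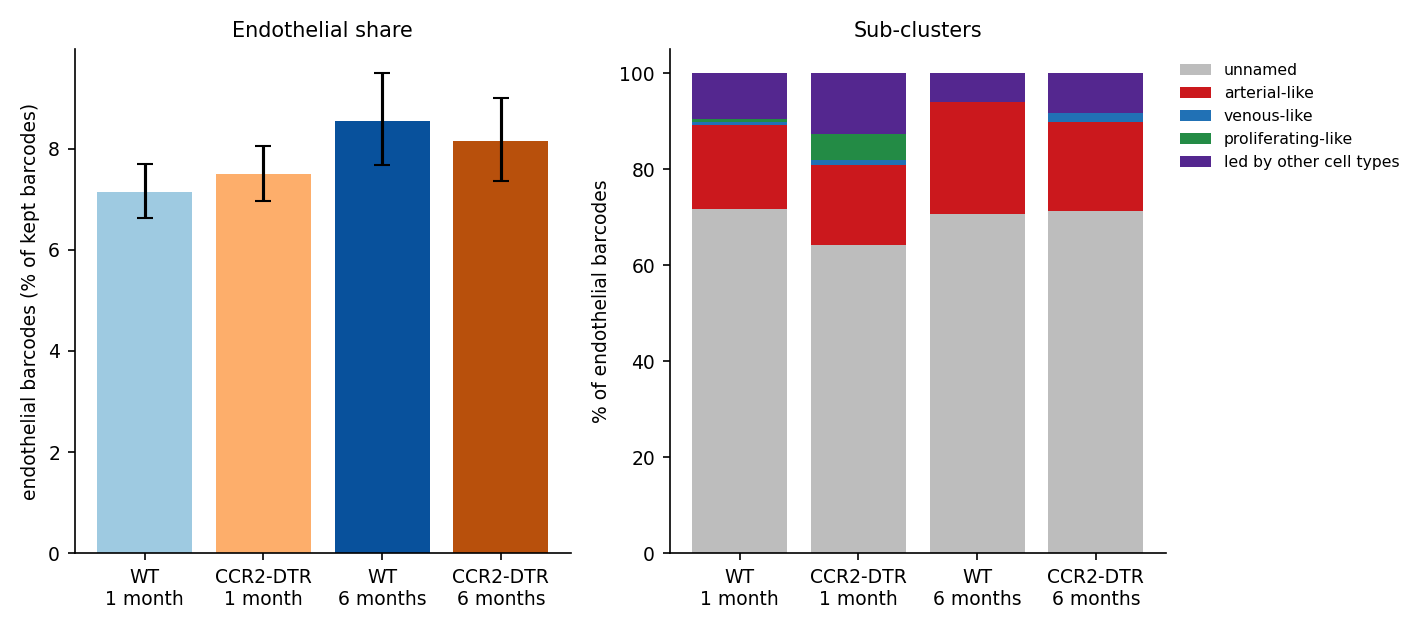
Endothelial barcodes as a percent of kept barcodes in each of the 4 libraries with exact 95% intervals for counting error (left), and the makeup of those endothelial barcodes by kind of sub-cluster in percent (right). The shares lie between 7.14% and 8.55% and their intervals overlap between the genotypes at each age.

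Genes of fenestrated capillaries stood high in all 4 libraries. Levels are given in CPM, a gene's UMIs per 1000000 UMIs of the endothelial barcodes of a library. Plvap, the diaphragm protein of endothelial fenestrae and a rule gene, stood at 4047, 3241, 3833 and 4457 CPM. Rgcc, a cell cycle regulator abundant in capillaries, stood at 2709, 3089, 1932 and 3367 CPM. Gpihbp1 stood at 486, 589, 545 and 579 CPM and Btnl9, a butyrophilin-like protein of capillary endothelium, at 668, 586, 800 and 756 CPM. Gpihbp1 and Btnl9 were past 1.5-fold in none of the 4 comparisons. Several genes of larger venules were scarce in the same barcodes. Vwf stood at 1.79, 2.28, 1.85 and 10.9 CPM, Selp at no more than 2.51 CPM, Ackr1 at no more than 1.68 CPM and Sele, an inducible leukocyte adhesion receptor of venules, had no UMI in any library. Other genes of the venous list, which further endothelium also uses, were not scarce, and 8 to 10 of the 22 passed the floor for a comparison, among them Nrp2 at 179, 166, 207 and 185 CPM and Ephb4 at 146, 115, 109 and 119 CPM. Of the lymphatic genes, Lyve1 stood at no more than 1.71 CPM and Mmrn1, Ccl21a and Nts had no UMI. After each barcode was thinned to 2000 UMIs, 1 barcode held at least 3 of 11 lymphatic markers.

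Clustering the members alone split them into sub-clusters whose leading genes define them and are a description. A total of 1375 members (69.0%) lay in 3 sub-clusters that stayed unnamed and are called here the unnamed sub-clusters. One of these was mostly from the 1-month libraries (317, 219, 15 and 17 members) and was led by Enpp3, Ssu2, Itm2a and Mfap2, with 2 capillary markers, fewer than a name required. Another was mostly from the 6-month libraries (10, 22, 185 and 208) and was led by Clca3a1, Cyp4b1, Bmp6, Inhbb and Alpl; it had 8 acinar markers, among them Prss2 and Cela2a, beside 3 capillary ones. A further one (139, 188, 25 and 30) was led by Apln, the apelin ligand gene, and Prnd, which encodes the prion-like protein doppel, together with Nos2 and Odc1, and had 3 venous and 3 capillary markers. Another 366 members (18.4%) were arterial-like and 17 venous-like. Since the leading genes of several sub-clusters differed between the libraries, sub-cluster sizes are given as a description of these libraries.

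The arterial-like members were 114, 111, 74 and 67 barcodes, or 17.5% (14.7% to 20.7%), 16.6% (13.9% to 19.7%), 23.3% (18.7% to 28.3%) and 18.7% (14.8% to 23.1%) of members. The intervals of all 4 libraries overlap. At clustering resolution 0.3 the arterial-like members were 95, 110, 8 and 17, with a genotype ratio of 1.89 at 6 months and age ratios of 0.172 in WT and 0.288 in CCR2-DTR. Different sub-clusters held them at the 2 ages. The one with the higher Gja4 and Hey1 held 105, 96, 8 and 21 members, and the one led by Igfbp5 and Mal held 9, 15, 66 and 46. Gja4, the arterial gap junction protein connexin 37, stood at 427 CPM in the first and 226 CPM in the second. Cxcl12, the chemokine of arterial endothelium, stood at 602 and 70.1 CPM, whereas Efnb2, the arterial ephrin, stood at 498 and 500.4 CPM. The venous-like sub-cluster held 4, 7, 0 and 6 members. In it Lrg1 stood at 799 CPM, Nr2f2 (the transcription factor of venous identity) at 378 CPM, Vwf at 266 CPM and Selp at 98.1 CPM, while the capillary gene Esm1 stood at 14.0 CPM. In this clustering 0 of 318 members in WT at 6 months were venous-like, which allows a share of up to 0.943%. With 2500 variable genes the venous-like sub-cluster held 186 members (52, 93, 9 and 32), 7 of its markers being venous, so the venous-like count depends on this setting.

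Capillary genes were not absent from the arterial-like members. Plvap stood at 3756 and 3494 CPM in the 2 arterial-like sub-clusters, 2984 CPM in the venous-like one and 4064 to 4894 CPM in the 3 unnamed ones. Rgcc formed a steeper series, from 3311 to 4151 CPM in the unnamed sub-clusters over 2175 and 1464 CPM in the arterial-like to 448 CPM in the venous-like one. Kdr stood at 2738 to 3680 CPM in the unnamed and arterial-like sub-clusters and at 560.4 CPM in the venous-like one. Pecam1, an adhesion protein of all endothelium, was highest in the venous-like one, at 2129.6 CPM against 965 to 1559.8 CPM. Plvap, Kdr and Esm1 belong to the rule, so barcodes low in all of them had less chance of entering it.

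**Figure D2:**
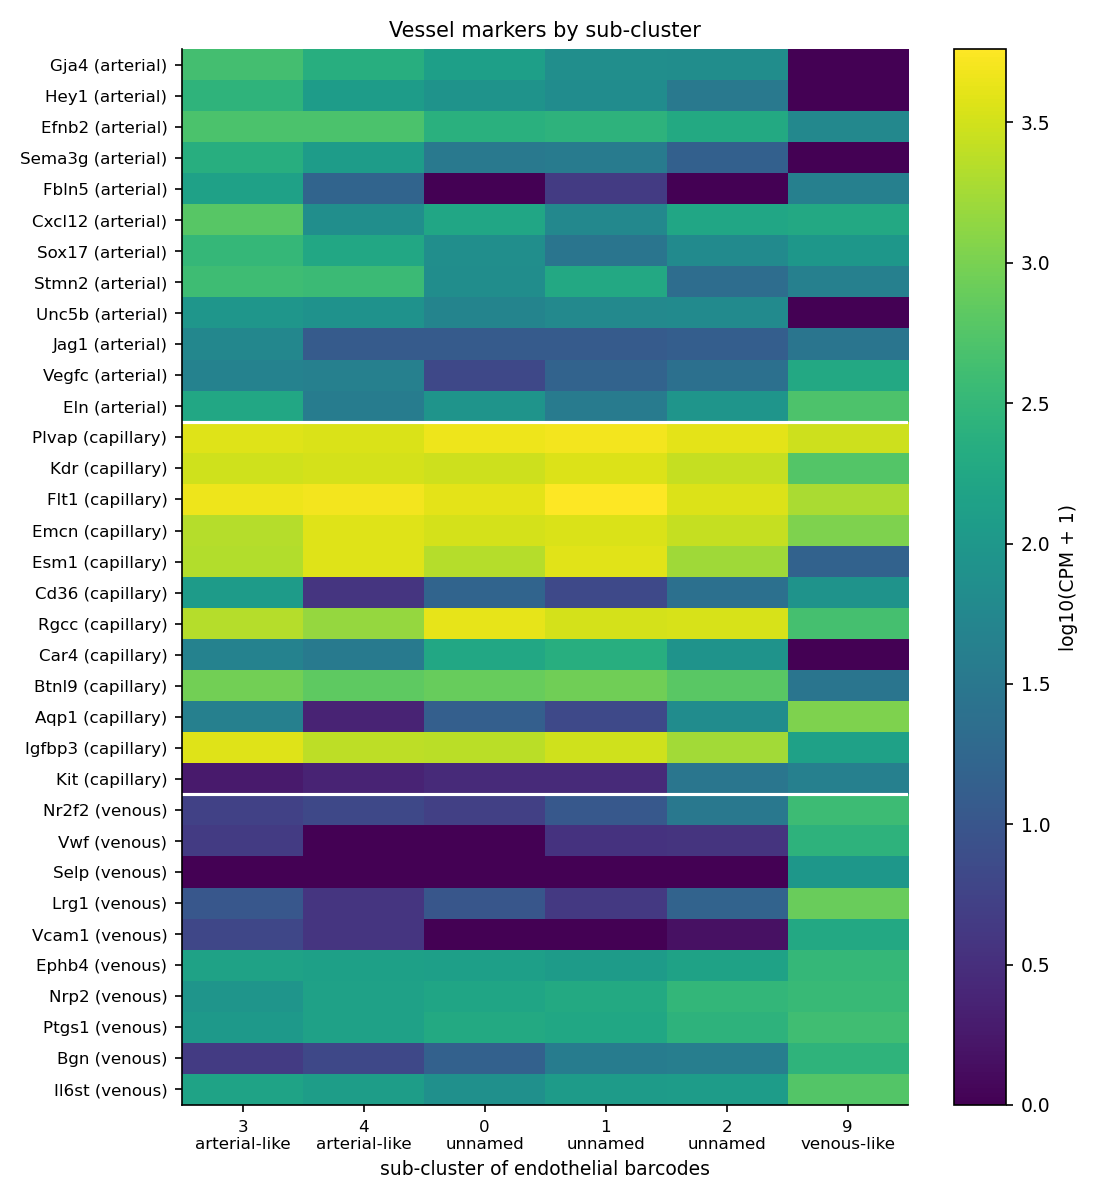
Level of vessel-type marker genes (vertical) in 6 sub-clusters of the endothelial barcodes, 2 arterial-like, 3 unnamed and 1 venous-like (horizontal), coloured by log10 of CPM plus 1. Arterial genes such as Gja4 and Hey1 are highest in the arterial-like columns and Vwf, Selp and Lrg1 in the venous-like column, and these genes were used to name the columns.

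A count of markers per barcode that does not rest on clustering gave similar arterial shares in the 4 libraries at the main setting. With 22 arterial genes and barcodes thinned to 2000 UMIs (96, 34, 11 and 12 shallower barcodes left out), 57.8%, 54.4%, 57.0% and 54.0% of members held at least 3. The CCR2-DTR to WT ratio was 0.942 (0.807 to 1.10) at 1 month and 0.948 (0.767 to 1.17) at 6 months. With at least 4 arterial genes the shares were 36.1%, 33.1%, 34.5% and 27.2%, and thinned to 1000 UMIs 30.5%, 26.9%, 26.7% and 20.7%. CCR2-DTR at 6 months was lowest in both. With at least 2 genes, where it was not lowest, they were 81.0%, 78.2%, 83.4% and 79.8%. In levels, of 15 measured arterial genes 10 lay below the median gene in CCR2-DTR at 6 months, with a list median of -0.27, and 3 were past 1.5-fold higher and 2 lower. Without thinning the shares were 76.9%, 79.6%, 86.8% and 88.5%. For 22 venous genes the thinned shares were 28.5%, 26.0%, 28.7% and 30.6% (58.2%, 65.1%, 80.2% and 77.4% unthinned), with genotype ratios of 0.913 (0.729 to 1.14) and 1.07 (0.798 to 1.43). With at least 4 venous genes the 6-month shares were 6.19% and 12.7%, a ratio of 2.05. In barcodes with at least 50% hormone UMIs, which should lack these genes and had median UMIs of 17057 to 33955, the thinned shares were 0% for arterial and at most 1.62% for venous markers. Many members lay near the cut of 3 markers, and whether each class is a range or a type was not tested. Of the members, 120, 135, 69 and 93 held exactly 3 arterial markers and 129, 151, 81 and 89 held 2, and 88, 85, 51 and 60 passed for both sets.

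Mki67, Top2a and Cenpf, genes of dividing cells, were higher in the CCR2-DTR than in the WT library at 1 month and close to absent at 6 months. Mki67, the nuclear antigen of cycling cells, stood at 19.7, 94.1, 0.462 and 0.419 CPM, from 55, 330, 1 and 1 UMIs. Top2a, the topoisomerase that untangles replicated DNA, stood at 19.7, 92.9, 0 and 0.419 CPM, and Cenpf, a kinetochore protein, at 14.7, 73.8, 0.925 and 0 CPM. For all 3 genes the CCR2-DTR library at 1 month stood above each of the other 3. At 1 month Mki67 was 4.78-fold higher in CCR2-DTR, a log2 ratio of 2.26 (1.84 to 2.70), Top2a 2.24 (1.82 to 2.68) and Cenpf 2.33 (1.85 to 2.84) on the same scale. Across all 3806 genes measured in that comparison (at least 50 CPM in 1 library and 20 UMIs over both), 1.37% were past 1.5-fold higher and 1.45% past 1.5-fold lower with an interval that left out 1. Of 30 proliferation genes 7 were measured and 5 of them were past 1.5-fold higher, Mki67, Top2a, Cenpf, Hmgb2 and Stmn1. Their median log2 ratio was 1.04 beside -0.04 for all genes. Mki67, Top2a and Cenpf passed the floor only through the CCR2-DTR library, where they were high, so this count and median support nothing by themselves. Hmgb2, a chromatin protein, stood at 85.2, 175, 54.1 and 41.5 CPM and Stmn1, a microtubule regulator, at 103, 205, 39.8 and 63.3 CPM, and both were thus still present at 6 months.

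The 3 genes are shown with their promoters, because genes of the late cell cycle share promoter elements by which they are switched together. Each line gives 250 bases before to 50 after the RefSeq transcription start, 5′ to 3′ on the gene's strand, build GRCm38.p6. Capitals mark a cell cycle homology region, searched as TTTGAA or TTCGAA, or a CCAAT box, searched as CCAAT, each on both strands. The windows are chr7:135716330-135716629 for Mki67, chr11:99024140-99024439 for Top2a and chr1:189688037-189688336 for Cenpf, all on the minus strand.
Mki67: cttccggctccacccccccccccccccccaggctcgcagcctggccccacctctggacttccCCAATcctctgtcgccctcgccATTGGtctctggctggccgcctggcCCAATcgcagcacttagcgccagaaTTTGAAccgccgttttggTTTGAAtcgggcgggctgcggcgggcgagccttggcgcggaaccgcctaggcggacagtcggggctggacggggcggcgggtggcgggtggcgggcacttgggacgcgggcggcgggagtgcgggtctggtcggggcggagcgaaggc
Top2a: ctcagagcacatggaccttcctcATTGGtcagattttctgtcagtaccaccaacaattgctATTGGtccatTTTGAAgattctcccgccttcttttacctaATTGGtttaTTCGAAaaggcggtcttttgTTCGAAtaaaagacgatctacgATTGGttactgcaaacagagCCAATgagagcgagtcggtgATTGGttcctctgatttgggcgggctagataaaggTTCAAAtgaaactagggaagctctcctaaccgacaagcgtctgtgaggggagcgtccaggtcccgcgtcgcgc
Cenpf: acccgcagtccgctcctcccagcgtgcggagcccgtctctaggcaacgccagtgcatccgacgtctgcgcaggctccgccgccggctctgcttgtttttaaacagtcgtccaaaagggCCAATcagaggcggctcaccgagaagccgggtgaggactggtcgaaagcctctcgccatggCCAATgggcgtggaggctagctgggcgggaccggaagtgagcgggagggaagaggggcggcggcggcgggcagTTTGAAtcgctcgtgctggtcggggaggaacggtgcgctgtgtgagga
In these windows Mki67 held 2 cell cycle homology elements and 3 CCAAT boxes, Top2a 4 and 6, and Cenpf 1 and 2. Of the 26 proliferation genes with a promoter in the table, 14 (53.8%) held both elements, against 7.57% of all 27025 promoters. A CCAAT box was present in 21 of 26 (80.8%) against 37.8% of all, and the homology element in 14 of 26 (53.8%) against 19.4%. A match is a description of letters and not evidence of use.

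The proliferation signal lay in few barcodes. Of the 1-month members, 4 in WT and 37 in CCR2-DTR formed the proliferating-like sub-cluster, and no 6-month member did. This sub-cluster is therefore mostly of 1 library. With 30 genes and thinning to 2000 UMIs, 26 of 554 WT barcodes (4.69%, 3.09% to 6.80%) and 72 of 634 CCR2-DTR barcodes (11.4%, 8.99% to 14.1%) held at least 3 proliferation genes at 1 month. The share was 2.42 times as high in CCR2-DTR (1.53 to 3.95). In the 6-month libraries 5 of 307 (1.63%) and 6 of 346 (1.73%) did, with a genotype ratio of 1.06 (0.271 to 4.41). The unthinned shares were 17.7%, 32.6%, 30.8% and 27.7%, at median depths that were higher at 6 months. Only the thinned order followed the levels of Mki67 and Top2a. In the barcodes with at least 50% hormone UMIs, 0.917%, 0%, 0% and 0.231% passed. Counts of at least 4 genes gave a 1-month ratio of 6.55 and thinning to 1000 UMIs 5.11.

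Values of other cells stood beside this result. Mki67 in the other kept barcodes was 26.2, 34.7, 1.94 and 2.68 CPM, so those barcodes too had more Mki67 at 1 month than at 6 months. The proliferating-like members had 2.82% alpha cell marker UMIs against 0.348% in the unnamed sub-clusters. Their median Scrublet doublet score was 0.126 against 0.0191 and their median depth 8859 against 3981 UMIs. Endothelial markers outside the rule made up 0.882% against 1.28% of UMIs, while median hormone UMIs were lower, at 2.95% against 4.10%. These members are not among the mixed barcodes, so leaving out mixed barcodes keeps them. Whether they hold RNA of a second cell was not tested. With the mixed barcodes left out the 1-month log2 ratio of Mki67 was 2.18, and the share of barcodes with at least 3 proliferation genes gave a ratio of 2.45. With every barcode of 10% or more hormone UMIs left out, 18 of 528 WT and 61 of 549 CCR2-DTR barcodes held at least 3 genes, a ratio of 3.26 (1.90 to 5.86). Each library pooled 2 to 3 mice, and the spread between mice was not measured.

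**Figure D3:**
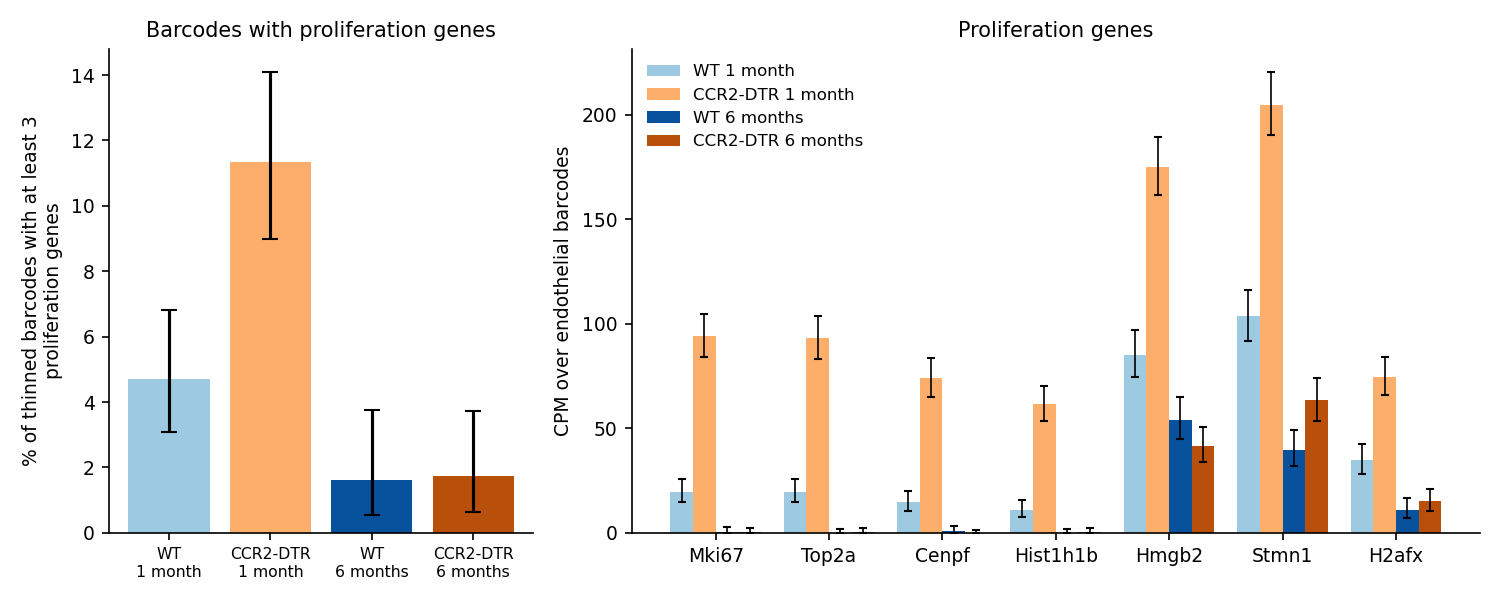
Percent of barcodes thinned to 2000 UMIs that held at least 3 of 30 proliferation genes in each library (left), and level in CPM of 7 genes of dividing cells (right), with exact 95% intervals for counting error. The CCR2-DTR library at 1 month reached 11.4%, the WT library at 1 month 4.69%, and both 6-month libraries stayed under 2%.

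At 6 months the median of the basement membrane list was lower and that of the antigen presentation list higher than at 1 month in both genotypes. In WT 122 of 3850 measured genes (3.17%) were past 1.5-fold higher at 6 months and 3.3% past 1.5-fold lower. In CCR2-DTR 5.92% of 3882 genes were past 1.5-fold higher and 3.68% lower. The 2 age comparisons share no library. Of 102 genes past 1.5-fold higher in WT and measured in both, 52 were also past it in CCR2-DTR (51.0% of the WT and 26.3% of the CCR2-DTR genes) and 5 were past it in the other direction. Of 119 lower genes 51 were also lower in CCR2-DTR (42.9% and 46.4%) and 4 were past it the other way. The median of all genes was -0.02 in WT and 0.02 in CCR2-DTR on the log2 scale.

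The basement membrane list was lower with age in both genotypes. Of 15 measured genes, 6 in WT and 7 in CCR2-DTR were past 1.5-fold lower at 6 months and 0 were higher, with medians of -0.30 and -0.54. Sparc, a collagen-binding matricellular protein, stood at 5565, 6192, 2561 and 2466 CPM, a log2 ratio with age of -1.12 (-1.16 to -1.08) in WT and -1.33 (-1.37 to -1.29) in CCR2-DTR. Col4a1 and Col4a2, the chains of the main type IV collagen of basement membranes, followed the same order. Col4a1 stood at 3128, 3719, 1860.4 and 1752 CPM and Col4a2 at 2416, 2573, 1250.1 and 1286 CPM. In all 3 genes both 1-month libraries lay above both 6-month libraries. Lama5, a laminin chain, was past 1.5-fold lower in both genotypes, whereas Lama4, Lamb1 and Nid1 were not past it in either. The age differences of these genes were larger than their genotype differences, since none of Sparc, Col4a1 and Col4a2 was past 1.5-fold between genotypes.

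Eln, Fbln2, Mfap2, Sox11 and Aplnr were lower at 6 months as well; they are named singly, and no list of such genes was compared. Eln, the gene of elastin, stood at 102, 122, 29.1 and 54.5 CPM, and Fbln2 and Mfap2, both elastic fibre-associated proteins, at 117, 143, 28.7 and 55.7 CPM and at 112, 115, 19.9 and 46.9 CPM. Sox11, a transcription factor of developing tissues, stood at 53.0, 57.3, 8.32 and 11.3 CPM, a log2 ratio of -2.67 (-3.46 to -1.96) in WT and -2.34 (-2.98 to -1.76) in CCR2-DTR. Aplnr, the apelin receptor found on sprouting and venous endothelium, stood at 114, 155, 26.4 and 34.4 CPM, or -2.11 and -2.18. These genes separated the ages without overlap in both genotypes.

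Esm1, Flt1, Kdr and Angpt2 stood higher at 6 months in both genotypes. Esm1, a proteoglycan that VEGF induces in tip cells and islet capillaries and a rule gene, stood at 1848, 1466, 4240.5 and 2709 CPM. Its log2 ratio with age was 1.20 (1.15 to 1.25) in WT and 0.89 (0.83 to 0.94) in CCR2-DTR. Flt1, a rule gene and the decoy receptor for VEGF-A, stood at 3821, 3203, 5263 and 4951 CPM, and Kdr, the main signalling receptor, at 2848, 2246, 3500.3 and 2981 CPM. Flt1 was past 1.5-fold in CCR2-DTR (0.63) and not in WT (0.46), and Kdr in neither (0.30 and 0.41). Of 5 measured VEGF receptor and ligand genes 0 were past 1.5-fold in WT and 1, Flt1, in CCR2-DTR. Since Esm1, Flt1 and Kdr helped choose the barcodes, their direction is a description. Angpt2, the Tie2 ligand of remodelling vessels and no rule gene, stood at 36.9, 25.4, 84.6 and 62.0 CPM, past 1.5-fold higher in both (1.20 and 1.29). It passed the floor of the comparison only through the 6-month libraries, where it was higher, so its direction is a description too. The tip cell and angiogenic list held genes of both directions, and 2 of 13 measured genes were past 1.5-fold higher and 4 lower in WT (median 0.09), and 1 of 12 higher and 3 lower in CCR2-DTR (median -0.25).

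Among ligands that endothelial cells send to islet cells, 7 of 17 measured were past 1.5-fold higher and 3 lower in WT, and 6 of 16 higher and 2 lower in CCR2-DTR. Ccn2, Bmp6, Apln and Angpt2 passed the floor in WT only through the 6-month library, where they were higher, as did Ccn2 and Angpt2 in CCR2-DTR, so these counts support no direction. Dkk2, a Wnt modulator, stood at 69.8, 70.4, 214 and 133 CPM, and Fgf1 at 72.3, 70.7, 152 and 136 CPM. Bmp6, the endothelial ligand that sets hepcidin in liver, stood at 8.23, 9.41, 65.7 and 41.5 CPM, past 1.5-fold higher in WT with a log2 ratio of 3.00. In CCR2-DTR it lay under the 50 CPM floor of the comparison. Cxcl12 went the other way, with 204, 218, 78.6 and 109 CPM, and is also an arterial marker.

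Arterial genes moved in both directions with age. Of 15 measured, 3 were past 1.5-fold higher and 6 lower in WT, and 4 higher and 6 lower in CCR2-DTR. Alpl passed the floor only through the 6-month libraries, where it was higher. Eln and Fbln2 passed it in WT only through the 1-month library, so these counts support no direction. Gja4 stood at 193, 144, 99.4 and 83.4 CPM and Hey1, a Notch target, at 106, 89.5, 70.7 and 54.5 CPM. Both were past 1.5-fold lower in both genotypes. Alpl, tissue-nonspecific alkaline phosphatase, stood at 14.0, 7.98, 75.4 and 57.0 CPM, and Stmn2 stood at 124, 78.1, 228 and 169 CPM. Efnb2 stood at 294, 217, 359 and 192 CPM and was not past 1.5-fold with age in either genotype. Igfbp5, which binds insulin-like growth factors, stood at 59.8, 10.3, 347 and 75.0 CPM, yet 38% to 59.8% of its UMIs lay in 5 barcodes of each library. Its higher level at 6 months is therefore carried by few, mainly arterial-like, barcodes.

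The class I genes B2m, H2-K1 and H2-Q7 stood higher at 6 months. B2m, the light chain of MHC class I, stood at 912, 831, 1528 and 1649 CPM, a log2 ratio of 0.74 (0.67 to 0.82) in WT and 0.99 (0.92 to 1.06) in CCR2-DTR. H2-K1, a class I heavy chain, stood at 804, 685, 1084 and 1448 CPM, past 1.5-fold in CCR2-DTR (1.08) and not in WT (0.43). H2-Q7 stood at 14.0, 17.4, 51.8 and 83.8 CPM; it is close in sequence to H2-Q6, so how reads were split between them is uncertain. Of 18 measured antigen presentation genes in WT 6 were past 1.5-fold higher and 0 lower. Of 17 in CCR2-DTR 10 were higher and 0 lower, and the list medians were 0.42 and 0.68. H2-Q7 passed the floor only through the 6-month libraries, where it was higher, so these counts support no direction and the medians are a description. The class II genes H2-Aa, H2-Ab1, H2-Eb1 and Cd74 of this list lay mostly in mixed barcodes and were past no fold without them. The list medians, taken relative to the median gene, were then 0.29 and 0.89. The interferon response list was not higher with class I. Their list median was -0.35 in WT, with Rsad2, an antiviral enzyme, at 619, 528, 265 and 382 CPM, and 0.02 in CCR2-DTR.

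Several immediate early and heat shock genes, which tissue handling can induce, also stood higher at 6 months. Hspa1a, the inducible heat shock protein, stood at 149, 77.8, 289 and 352 CPM, and in the other kept barcodes at 87.4, 74.4, 135 and 160.0 CPM. Of 27 immediate early and heat shock genes measured in CCR2-DTR, 9 were past 1.5-fold higher with age and 0 lower. In WT 4 of 26 were past 1.5-fold higher. Hspa1b and Socs3 in CCR2-DTR and Cebpb in WT passed the floor only through the 6-month library, where they were higher, so these counts support no direction. Hspa1a and Hspa1b are near-identical, so their split is uncertain. The part of handling in the other age differences was not tested.

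**Figure D4:**
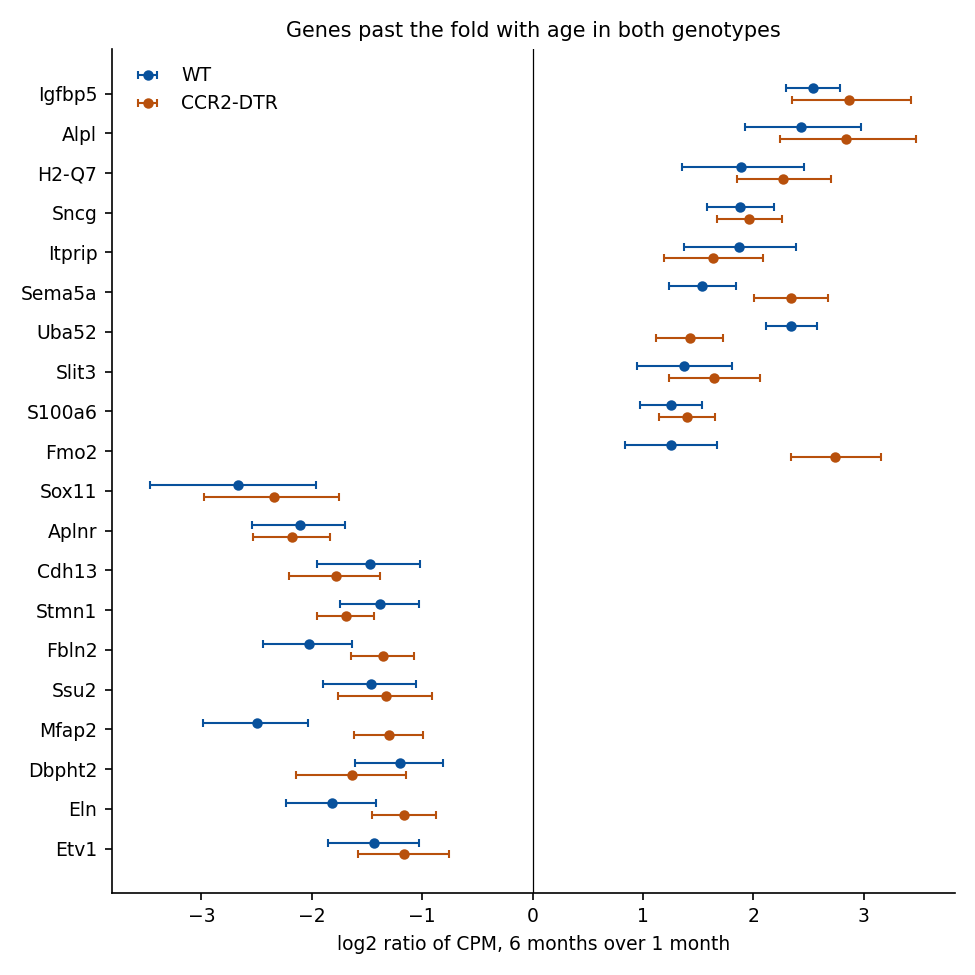
Log2 ratio of CPM at 6 months over 1 month in WT (blue) and CCR2-DTR (orange) for the 10 genes each way that differed most with age in both genotypes, with exact 95% intervals for counting error. Alpl lies at 2.43 and 2.84 and Sox11 at -2.67 and -2.34, and both passed the floor only through the age where they were high. Every interval shown lies on 1 side of 0, but the genes were chosen by this difference, so the figure is a description.

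Fewer genes were past 1.5-fold between genotypes than between ages. At 1 month 52 genes were higher and 55 lower in CCR2-DTR. At 6 months 86 of 3813 genes (2.26%) were higher and 53 (1.39%) lower. The 2 genotype comparisons share no library. Of 37 genes past 1.5-fold higher in CCR2-DTR at 1 month and measured at both ages, 8 were also higher at 6 months (21.6% of the 1-month and 12.3% of the 6-month genes) and 4 were past it in the other direction. Of 54 lower genes, 3 were also lower (5.56% and 8.11%) and 5 were past it the other way. Most genes past 1.5-fold at 1 month were thus not past it at 6 months.

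Fkbp5, Ddit4 and Tsc22d3 were among the genes higher in CCR2-DTR at both ages. Fkbp5, a co-chaperone that restrains the glucocorticoid receptor, stood at 109, 189.6, 145 and 251 CPM, a log2 ratio of 0.80 (0.60 to 1.00) at 1 month and 0.79 (0.59 to 0.99) at 6 months. Ddit4, an mTORC1 inhibitor, stood at 34.0, 116, 49.5 and 86.3 CPM, or 1.77 (1.44 to 2.10) and 0.80 (0.46 to 1.15). It passed the floor of the comparison only through the CCR2-DTR libraries, where it was higher, so its direction is a description. Both CCR2-DTR libraries lay above both WT libraries in Fkbp5 and Ddit4. Tsc22d3, a glucocorticoid-induced leucine zipper protein, stood at 291, 439.9, 287 and 439.9 CPM, past 1.5-fold at both ages (0.59 and 0.62) and at neither with mixed barcodes left out (0.54 and 0.56). In the other kept barcodes CCR2-DTR also stood above WT at both ages. Fkbp5 stood there at 43.8, 72.0, 63.9 and 75.2 CPM, Ddit4 at 13.3, 19.9, 18.5 and 22.8 CPM and Tsc22d3 at 16.1, 25.7, 17.0 and 26.2 CPM. The order was thus seen across the islet libraries as well as in the endothelial barcodes. Cdkn1a, the cell cycle inhibitor p21, stood at 269, 398, 355 and 647 CPM, past 1.5-fold at 6 months (0.87) and not at 1 month (0.57).

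Prdm1, Efnb2 and Esm1 stood lower in CCR2-DTR at both ages. Prdm1, a zinc finger repressor, stood at 276, 160.2, 255 and 168 CPM, a log2 ratio of -0.79 (-0.95 to -0.63) at 1 month and -0.60 (-0.79 to -0.41) at 6 months. Without mixed barcodes its 6-month difference was -0.57 and not past 1.5-fold. Efnb2 differed by -0.44 (-0.58 to -0.29) and -0.90 (-1.07 to -0.73) and was past 1.5-fold at 6 months only; the difference between the ages was not tested. Esm1 was lower in CCR2-DTR at both ages, by -0.33 and -0.65, past 1.5-fold at 6 months. Other genes lower in CCR2-DTR at 6 months were Mecom, an arterial transcription factor, at 97.1 against 41.9 CPM, Tgfb2, a growth factor, at 112 against 50.7 CPM, Hlx at 188 against 102 CPM and Pcdh17, a protocadherin, at 692 against 412 CPM. Mecom passed the floor only through the WT library, where it was higher, so its direction is a description. The Tgfb2 difference was absent when each barcode was thinned to 1000 UMIs (log2 ratio 0.0059).

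Cyp26b1, the enzyme that breaks down retinoic acid, differed between genotypes in opposite directions at the 2 ages. It stood at 199.8, 41.3, 6.47 and 200.7 CPM, from 558, 145, 14 and 479 UMIs. WT at 1 month and CCR2-DTR at 6 months were thus high and near equal, and WT at 6 months was lowest. The log2 ratio of CCR2-DTR to WT was -2.27 (-2.55 to -2.01) at 1 month and 4.95 (4.19 to 5.84) at 6 months, the latter 31.0-fold. UMIs of the gene were found in 36.8%, 11.53%, 2.83% and 41.3% of members. It was close to absent from other kept barcodes (0.07 to 0.73 CPM). The order was the same in the unnamed sub-clusters, with 234, 49.1, 6.90 and 204 CPM, and in the arterial-like ones, with 236, 49.7, 8.85 and 289 CPM. Without mixed barcodes the ratios were -2.37 and 4.86. Pooled mice could not be separated, so the spread of Cyp26b1 between mice was not measured.

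Zbtb16, a zinc finger factor that glucocorticoids induce in many cells, was low in WT at 6 months too. It stood at 185, 211, 19.4 and 163 CPM, a genotype ratio of 0.19 (0.03 to 0.36) at 1 month and 3.07 (2.61 to 3.57) at 6 months on the log2 scale. Thrsp, a regulator of lipid synthesis, stood at 539, 692, 258 and 540.5 CPM and Rgcc, given above, was 0.80 higher in CCR2-DTR at 6 months. For these genes the WT library at 6 months was the lowest of the 4, so their 6-month genotype difference and their WT age difference rest on the same library. Iigp1, an interferon-induced GTPase, stood at 142, 127, 83.2 and 176 CPM with the same lowest library.

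Some 6-month differences rested on mixed barcodes. Mgp, a matrix protein of pericytes, smooth muscle and arteries, stood at 132, 120.0, 12.9 and 277 CPM, but 94.9% of its UMIs in CCR2-DTR at 6 months lay in mixed barcodes. Without those it was not past 1.5-fold. Nr2f2 stood at 35.8, 34.8, 14.8 and 51.5 CPM, with 77.2% of its UMIs in CCR2-DTR at 6 months in mixed barcodes, and was 10.0 and 13.8 CPM at 6 months without them. Rgs5, a pericyte gene that some capillary lists hold, stood at 274, 169.6, 83.7 and 369 CPM beside them.

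**Figure D5:**
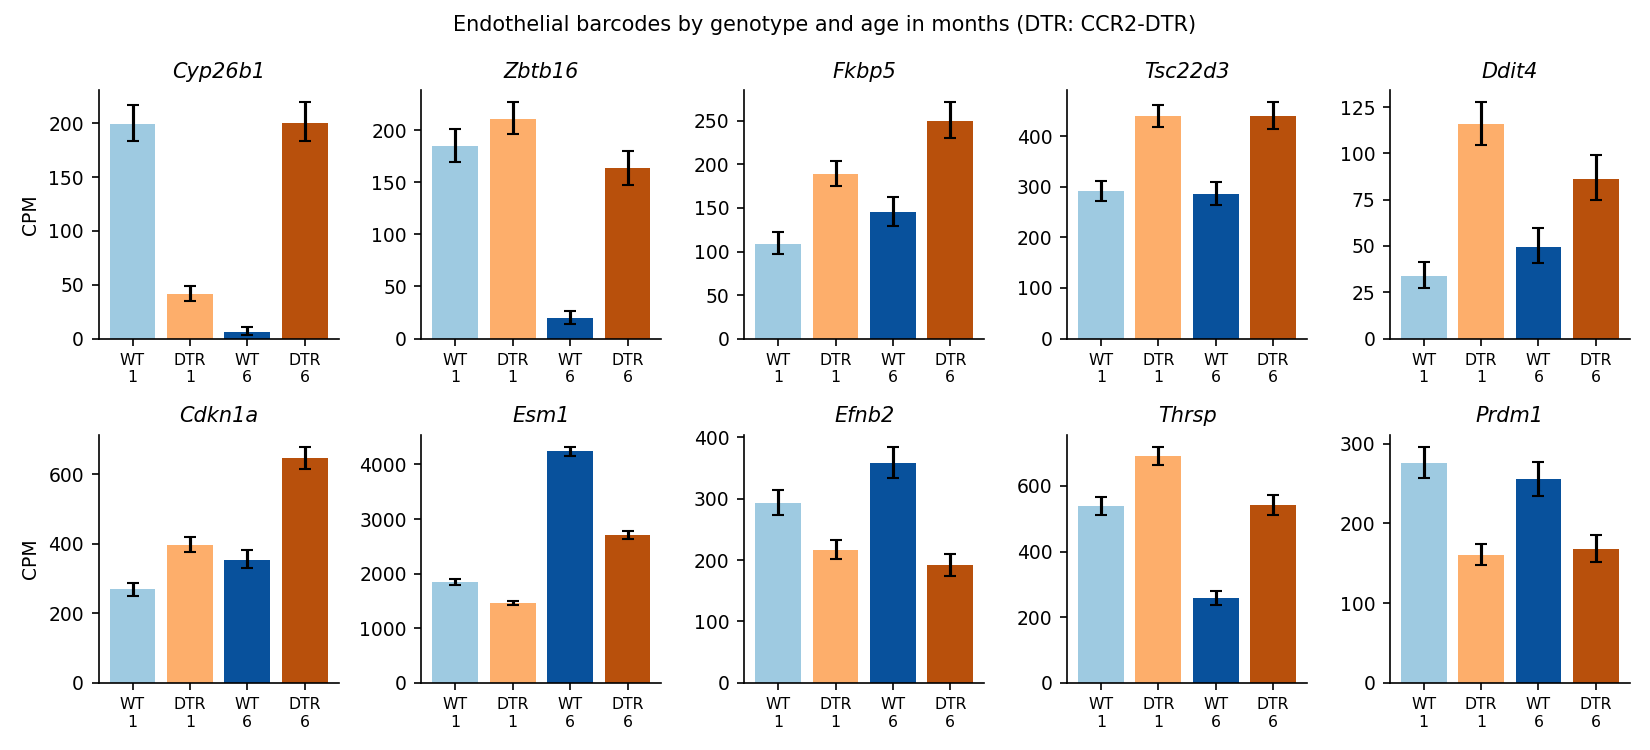
Level in CPM of 10 genes in the endothelial barcodes, 1 bar per library by genotype and age in months, with exact 95% intervals for counting error and a separate linear axis from 0 for each gene. Fkbp5 and Ddit4 stand higher and Prdm1 and Efnb2 lower in CCR2-DTR at both ages, and Cyp26b1 is high in WT at 1 month (199.8 CPM) and CCR2-DTR at 6 months (200.7 CPM).

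Lists without other cell types' markers lay at least 0.2 (log2) from the median gene between genotypes as follows. At 1 month, beside proliferation, lipid uptake genes lay higher in CCR2-DTR with a median of 0.30, and 0 of 6 were past 1.5-fold. Lower at 1 month were VEGF receptors and ligands (-0.25, 0 of 5 past 1.5-fold), antigen presentation (-0.26, 0 of 17), endothelial transcription factors (-0.25, 2 of 27) and oxidative phosphorylation (-0.27, 3 of 40). The VEGF list held the rule genes Flt1 and Kdr, and its median was the value of Flt1, so it is a description. The 8 rule genes had a median of -0.29, as a description too. At 6 months the nutrient and ion carriers lay higher in CCR2-DTR, with a median of 0.36 and 3 of 8 past 1.5-fold, among them the prostaglandin carrier Slco2a1 at 116 against 174 CPM. Higher too were interferon response genes (0.28, 2 of 21 past 1.5-fold higher and 1 lower) and immediate early and heat shock genes (0.21, 5 of 27 higher and 0 lower). Irgm1 and Socs3 entered these counts only through the CCR2-DTR library, where they were higher, so the counts support no direction. Lower at 6 months were arterial genes (-0.27, given above), insulin and IGF signalling (-0.29, 1 of 9 past 1.5-fold) and Notch (-0.23, 0 of 9), and the last pair changed sign under another floor. The medians of all genes were -0.04 and 0.01. Genes for fenestrae, caveolae and transcytosis had medians of -0.19 and 0.03, with 0 of 9 past 1.5-fold at either age. Of 24 measured pan-endothelial genes outside the rule 0 were past 1.5-fold at either age. At 1 month 22 of them lay below the median gene, with a list median of -0.20, less than 0.2 from that of all genes. At 6 months 14 lay below it, with a list median of -0.04.

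Identity genes of the endothelium differed in part with age. Of 28 endothelial transcription factors measured in WT, 4 were past 1.5-fold lower at 6 months and 0 higher, and of 29 in CCR2-DTR 3 were lower and 5 higher. In CCR2-DTR, Foxf1, Hey2 and Hoxb4 passed the floor only through the 6-month library, where they were higher. Mecom in CCR2-DTR and Tcf15 in WT passed it only through the 1-month library, so these counts support no direction. Sox18, a factor of vessel development, stood at 957, 677, 618 and 706 CPM and Foxp1, a forkhead repressor, at 365, 298, 201 and 209.9 CPM, both past 1.5-fold lower in WT and not in CCR2-DTR. Tcf15, a partner of Meox factors in fatty acid uptake by capillaries, stood at 58.4, 50.2, 9.71 and 35.2 CPM, lowest in WT at 6 months. Erg, a factor that maintains endothelial identity, stood at 156, 151, 167 and 175 CPM and was past 1.5-fold in no comparison. Of 13 measured junction genes 0 were past 1.5-fold with age in either genotype, with Esam, an adhesion molecule of endothelial tight junctions, at 882, 787, 771 and 801 CPM. Between genotypes Pcdh17 at 6 months was the 1 junction gene past it.

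Guidance and lipid genes gave the same mixed picture. Sema5a, a semaphorin, stood at 46.9, 27.4, 136 and 138 CPM. Slit3, a ligand of Robo receptors, stood at 25.1, 20.8, 64.7 and 64.9 CPM, and each was past 1.5-fold higher with age in both genotypes. Both genes passed the floor only through the 6-month libraries, where they were higher, so their direction is a description. Of 16 measured semaphorin, ephrin and Slit genes 4 were past 1.5-fold lower in CCR2-DTR at 6 months and 0 higher, namely Efnb2, Epha4, Sema6d and Unc5b. Sema6d stood at 290.0, 230.1, 333 and 213 CPM and Epha4 at 83.4, 79.3, 121 and 70.8 CPM, so the WT library at 6 months was the highest of the 4 for both. Lpl, lipoprotein lipase, was past 1.5-fold lower with age in both genotypes, at 53.7, 52.7, 21.7 and 26.8 CPM, while its anchor Gpihbp1 was not. Lpl passed the floor only through the 1-month libraries, where it was higher, so its direction is a description. Fabp4, a fatty acid-binding protein of capillaries, stood at 706, 905, 989 and 1009 CPM and was past 1.5-fold in no comparison.

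Ccr2, whose regulatory sequence drives the receptor, had UMIs in 0 of 650, 10 of 668, 1 of 318 and 7 of 358 members. In barcodes with at least 50% hormone UMIs the Ccr2 shares were 0.0611%, 3.20%, 0% and 5.45%. Those barcodes are deeper (median UMIs of 17057 to 33955 against 3172 to 5845), and the shares were not compared at equal depth. Whether the Ccr2 UMIs in members are background was therefore not tested. The neighbouring gene Ccr3 had UMIs in 0, 33 (4.94%), 0 and 19 (5.31%) members and in 0%, 4.57%, 0% and 9.55% of those hormone-rich barcodes, in the CCR2-DTR libraries alone. These UMIs were thus not limited to the members. A count of 0 allows a share of members with a Ccr3 UMI of up to 0.462% in WT at 1 month and 0.943% in WT at 6 months.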

How the data were processed

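The authors deposited raw UMI counts per gene and barcode for each library, made with Cell Ranger 5.0.1 on mm10 per the submitters' processing notes; the count files listed 10433 barcodes for WT and 12444 for CCR2-DTR at 1 month, and 5089 and 7113 at 6 months. Library totals were 60315217 to 121292320 UMIs. From these counts, UMIs were summed over the endothelial barcodes of a library and divided by their total (CPM). The CPM of 2 libraries were compared as a ratio with an exact conditional 95% interval, and shares have Clopper-Pearson intervals. Genes needed 50 CPM in 1 of 2 libraries and 20 UMIs over both; a gene was past 1.5-fold when the ratio reached it and the interval left out 1. A gene under 50 CPM in 1 library passed this floor only through the other, where it was high, so its direction is a description. A count of 0 was set to 3. A gene list was spoken of as higher or lower when its median lay at least 0.2 (log2) from that of all genes with at least 4 measured. Members were clustered with scanpy 1.11.5 and leidenalg 0.10.2 (1500 variable genes, 20 components, 15 neighbours, resolution 0.6). Doublets were not removed; members with a Scrublet score above 0.25 (3.69% to 4.79% by library) were left out as an alternative. The calculation was tested on simulated data with Poisson counting error alone: 96% to 100% of genes simulated at 2-fold were called, and at most 0.167% of unchanged genes. These rates do not cover spread between mice, barcodes or libraries, which the simulation left out. Named genes were list members, the 12 highest and 12 lowest per comparison by the interval bound nearer 1, the 10 most alike in both ages or both genotypes each way, and the 15 furthest above other barcodes. Members, lists and rules were chosen with earlier results of these data known. Promoters came from RefSeq (GRCm38.p6). Other software was Python 3.11.15, numpy 2.4.6, SciPy 1.17.1, pandas 2.3.3 and matplotlib 3.10.9.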

Additional observations from a re-analysis of the deposited data

Results flagged for a closer look

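Between genotypes, 5 genes were past 1.5-fold in opposite directions at 1 and 6 months, and the difference between the ages was not tested. Cyp26b1 differed by -2.27 on the log2 scale (CCR2-DTR over WT) at 1 month and 4.95 at 6 months. Its age difference was likewise opposite in the genotypes, -4.95 in WT and 2.28 in CCR2-DTR, which is the same set of 4 values. Car4, a membrane carbonic anhydrase of capillaries, differed by -0.87 (-1.12 to -0.61) and 0.77 (0.55 to 0.99), at 112, 61.3, 126 and 215 CPM. Klf10, a TGF-beta-induced transcription factor, differed by -0.94 and 0.74, at 108, 56.4, 48.5 and 81.3 CPM. Without mixed barcodes Car4 (-0.97 and 0.86), Klf10 (-1.07 and 0.78) and Cyp26b1 stayed past 1.5-fold at both ages.

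Rgs2, a regulator of G protein signalling, differed by 1.29 at 1 month and -0.64 at 6 months, and Scg2, a secretory granule protein of endocrine cells, by 1.52 and -0.94. Both were higher in the other kept barcodes than in the members, Rgs2 at 63.2, 230.2, 216 and 301 CPM there. Without mixed barcodes the 6-month difference of neither gene was past 1.5-fold (-0.18 for Rgs2 and -0.51 for Scg2).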

How the results depend on the processing

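No paired analysis was possible because each group was 1 library. Leaving out a replicate was likewise not possible. The alternatives, of which leaving out mixed sub-clusters or barcodes with 10% or more hormone UMIs were chosen after seeing the data, gave 66 counts of genes within 1.5 times the reported count and 30 outside it. For named genes 1614 values moved by less than their interval, 144 by more and 5 changed sign. For lists these numbers were 1546, 234 and 8, and for shares 83, 23 and 2.

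The endothelial share ratio was 1.21 for the genotypes at 1 month and 1.53 for age in WT with at least 2000 UMIs per barcode. With hormones under 5% it was 0.461 for the genotypes at 1 month, 1.04 for age in WT and 2.12 for age in CCR2-DTR. With kept barcodes of under 20% hormones as the denominator it was 0.935 and 1.20 for the genotypes at 1 and 6 months and 0.629 and 0.810 for age in WT and CCR2-DTR.

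Counts of genes past 1.5-fold, higher and lower, depended on the floor. At 25 CPM they were 154 and 123 (genotype, 1 month), 169 and 152 (genotype, 6 months), 265 and 286 (age, WT) and 385 and 350 (age, CCR2-DTR). At 100 CPM they were 18 and 34, 39 and 27, 67 and 72, and 130 and 63 in the same order. With no CPM floor they were 572 and 260, 329 and 301, 476 and 572, and 611 and 945. Thinned to 1000 UMIs per barcode they were 117 and 150, 131 and 125, and 213 and 209 for the first 3 comparisons.

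Genes that changed sign were Atad2 (-0.39), Pkig (-0.10) and Tgfb2 (0.0059) between genotypes at 6 months when thinned, and Tmsb15b2 without mixed sub-clusters, 1.27 between genotypes at 1 month and 0.37 with age in WT. Tgfb2 is named in the report as lower in CCR2-DTR, and Tmsb15b2 shares reads with a near-identical copy. Lists that changed sign were delta and gamma cell markers with age in WT (-0.13 with equal weight per barcode, -0.10 thinned, -0.17 at 25 CPM, -1.97 without high Scrublet scores and -0.70 without mixed sub-clusters), proliferation with age in WT (0.11 thinned), insulin and IGF signalling (0.055 at 100 CPM) and Notch (0.044 with no floor), the last pair between genotypes at 6 months.

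The share of barcodes with proliferation genes gave a genotype ratio at 1 month of 1.52 for at least 2 genes, 6.55 for at least 4 and 5.11 thinned to 1000 UMIs. For the share with proliferation genes, 6 over 1 month in CCR2-DTR, it was 0.550, 0.0407 and 0.0444 under the same settings and 0.847 without thinning, and in WT 1.74 without thinning, above 1. For arterial genes with age in CCR2-DTR it was 0.820 for at least 4 genes and 0.767 thinned to 1000 UMIs. For venous genes at least 4 gave 2.05 between genotypes at 6 months and 0.602 with age in WT, and no thinning gave 1.38 with age in WT. Clustering at resolution 0.3 gave arterial-like ratios of 1.89 (genotype, 6 months), 0.172 (age, WT) and 0.288 (age, CCR2-DTR). The cause of these changes was not tested.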
